A study of Mus musculus with 24 samples.

Results

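Gene expression was compared between day 9 and day 6 of differentiation in Atf3 knockout (KO) mouse embryonic stem cells, the last of the 3 steps between neighbouring days that were sampled in this line. The comparison used 6 of the series' 24 RNA-seq libraries, 3 KO libraries at day 6 and 3 at day 9, chosen by genotype and day. The other 18 libraries were the same line at days 0 and 3 and wild-type (WT) cells at days 0, 3, 6 and 9, with 3 libraries per group. Genes with an FPKM (fragments per kilobase of gene, scaled by library) of at least 1 in at least 3 of the 6 compared libraries were tested, which left 12425 of 53465 genes in the table (23.2%). All 6 libraries carried the Atf3 knockout and came from cells kept beforehand with leukaemia inhibitory factor, CHIR99021 (a GSK3 inhibitor) and PD0325901 (a MEK inhibitor), so the comparison measures the passage of 3 days within the knockout. The sources used here do not give the edited part of Atf3, the medium that drove differentiation, whether the KO line is a single clone or whether the 3 libraries of a group were separate cultures. The p-values therefore measure only the spread between libraries, and some of that spread may be technical.

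Embryonic stem cells that leave the pluripotent state towards mesoderm pass through cells like those of the primitive streak. Mesoderm in turn forms heart muscle, vessel walls, connective tissue and the first blood, and in the embryo the earliest red cells arise beside the visceral endoderm of the yolk sac. Heart muscle cells are recognised by the proteins of the sarcomere, the repeating contractile unit of actin, myosin and their regulators. Atf3 itself is a stress-induced transcription factor of the ATF/CREB family.

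Atf3 (chromosome 1, 191170296 to 191218039, minus strand, mm10) was at 0.343, 0.578 and 4.17 FPKM in the 3 KO libraries at day 6 and at 0.355, 0.714 and 0.532 FPKM at day 9. The 5 low values all lay under 1 FPKM, and replicate 3 at day 6 stood above them at 4.17 FPKM. WT libraries ranged from 10.9 to 24 FPKM at day 6 and from 13.7 to 16.2 FPKM at day 9, so no KO library overlapped them. In KO cells Atf3 was under the level needed to enter the test.

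The 6 KO libraries held 12272970 to 20319463 recovered reads, within a range of 7855631 to 25274436 over the series, and ribosomal-RNA-type genes took 4.92% to 18.6% of their reads. Day 6 replicate 3 stood apart. Its correlation across genes was 0.848 and 0.904 with the other 2 day 6 libraries, which had 0.978 with each other, while the 3 day 9 libraries had 0.957 to 0.962 among themselves. This library had the highest Atf3 of the 6, and its markers of red cells and visceral endoderm were low: the FPKM of 6 erythroid markers summed to 163 in it, against 2063 and 2498 in the other day 6 libraries, and those of 6 visceral endoderm markers to 47.9 against 548 and 474. Values without this library are given beside the results that it moved most.

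Between day 6 and day 9 the KO cells gained RNA for many genes of the heart sarcomere, smooth muscle and collagens. Some genes of the epicardium and vessel lining rose too. In the deposited values, several streak and posterior genes and interferon and class I antigen-presentation genes were lower at day 9. Simple keratins and some yolk-sac genes were lower as well, with the limits given below. Of the 12425 genes tested, 1154 (9.29%) passed limma's test at an adjusted p under 0.05, 809 higher at day 9 (6.51%) and 345 lower (2.78%), and the median log2 fold change of all genes was -0.03. Fold changes are differences of mean log2(FPKM + 1), and this scale shrinks the change of genes near or below 1 FPKM. The spread was taken from all 24 libraries, among them KO day 0 libraries that were closer to each other than the compared ones. Between libraries of a group, chi-square per degree of freedom was 7.84 to 10.5 at KO day 0. It was 47.6 to 270 at KO day 6 and 54.95 to 90.1 at KO day 9. The pooled spread may therefore understate that of the compared groups. With the spread of the 6 compared libraries alone, 248 genes (2%) passed (191 higher, 1.54%, and 57 lower, 0.459%), and without day 6 replicate 3 the count was 1801 (14.5%; 1004 higher, 8.08%, and 797 lower, 6.41%). Scaling also moved the balance: 70.1% of the calls were higher at day 9 with the deposited values, 91.3% of 780 with TPM and 87.5% of 1540 with equal library sums outside ribosomal-RNA-type genes. The median of all genes moved by 0.39 with TPM and by 0.24 with equal sums. The direction of a change smaller than these therefore holds for the deposited scaling alone. With TPM no simple-epithelium gene passed as lower. With the spread of the 6 compared libraries alone, no simple-epithelium or yolk-sac gene did. Some genes described below entered the test through 1 day alone, with every library of the other day under 1 FPKM, so they had to differ, and neither their p-value nor the lack of overlap adds support. Through day 9 these were Slc8a1, Nppa, Hcn4, Myl2, Ldb3, Myom1, Gata5, Cox6a2, Lmod1, Col14a1, Wt1, Cldn5, Emcn, Nr2f2, Cd34, Osr1, Foxc2, Ptn, Mab21l2, Tgfb3, Rarb, Angpt2, Itga8 and Otx2. Through day 6 they were Hoxb6, Hoxb8, Hoxc8, Hoxc10, Tap2 and Prss1. In bulk RNA, fewer cells of a type and less RNA per cell cannot be told apart.

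**Figure D1:**
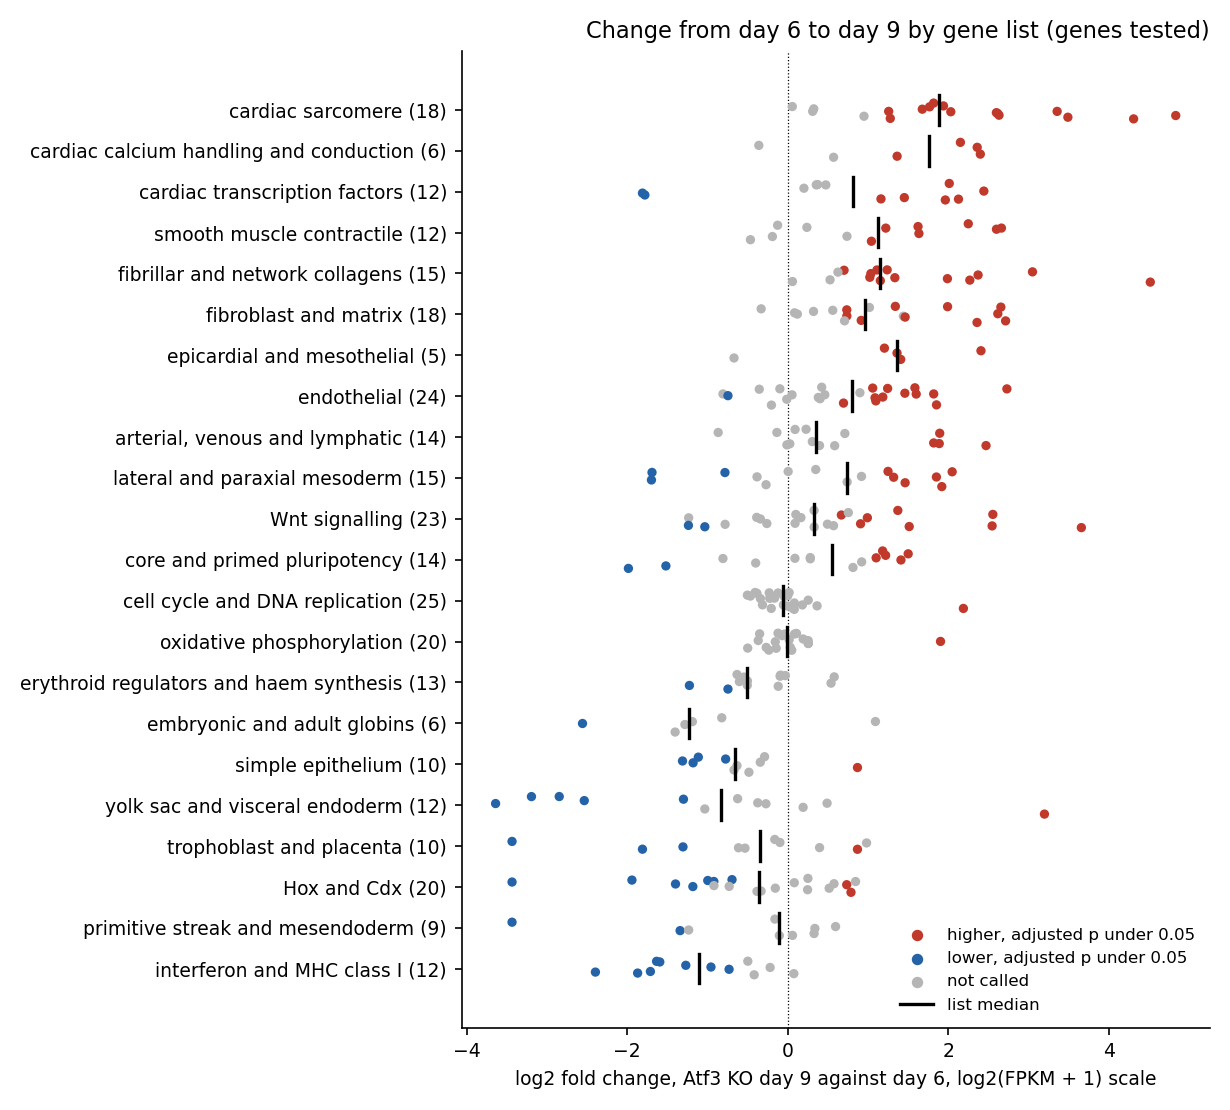
Log2 fold change from day 6 to day 9 in Atf3 KO cells (horizontal axis, log2(FPKM + 1) scale) for each tested member of 22 gene lists, 1 point per gene, with the list median as a bar. Red and blue points passed an adjusted p under 0.05. The cardiac sarcomere list has a median of 1.88, and the interferon and MHC class I list sits at -1.11.

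Genes of the heart sarcomere rose by a large margin. Of 20 cardiac sarcomere genes, 18 were tested and 14 rose, with none lower, and all 18 had a positive log2 fold change (median 1.88, or 1.68 without day 6 replicate 3, against -0.03 for all genes). Of the 14, 5 were under 1 FPKM in every day 6 library and entered the test only through day 9, so they had to differ; the counts describe the tested genes and are not a test of the list. Cardiac alpha-actin, Actc1, was at 6.73, 5.25 and 10.3 FPKM at day 6 and 382, 302 and 109 FPKM at day 9, a log2 fold change of 4.83 ± 0.47 (SE) with limma's adjusted p = 4.46e-07. Every day 9 library was at least 10 times above every day 6 library. Atrial light chain Myl7 went from 30.5, 14.6 and 4.88 FPKM to 276, 555 and 145 FPKM (log2 fold change 4.31 ± 0.54 (SE), adjusted p = 1.21e-05), and the groups did not overlap. Another myosin light chain of the atria, Myl4, was at 4.36, 2.06 and 0.781 FPKM and then at 38, 69.4 and 14.1 FPKM (log2 fold change 3.49 ± 0.40 (SE), adjusted p = 4.51e-06). Alpha myosin heavy chain, Myh6, rose from 1.88, 1.53 and 0.539 FPKM to 24.5, 32.8 and 13 FPKM (log2 fold change 3.36 ± 0.24 (SE), adjusted p = 1.06e-08). Day 9 replicate 3 was the lowest of the day 9 libraries for all 4 of these genes and still lay above every day 6 library. The ventricular light chain Myl2 and troponin T, Tnnt2, both chosen after their values were seen, rose as well, Myl2 from 0.189, 0.167 and 0.127 FPKM to 4.56, 7.52 and 6.6 FPKM (log2 fold change 2.62) and Tnnt2 from 2.24, 1.55 and 0.294 FPKM to 13.1, 23.4 and 5.95 FPKM (log2 fold change 2.60). The 4 members that did not pass, Tpm1, Tnnc1, Myl3 and Cryab, were already expressed at day 6. Tropomyosin Tpm1 was at 103, 136 and 161 FPKM and then 159, 140 and 114 FPKM, and slow troponin C, Tnnc1, was at 58, 27.9 and 11.9 FPKM and then 39.5, 62.4 and 15.3 FPKM. With the spread of the 6 libraries alone, 10 of the 18 passed. The 5 cardiomyocyte markers summed to 16.7 to 46.9 FPKM in the day 6 libraries and to 274 to 921 FPKM at day 9.

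The start regions of 2 of these genes show the letters that serum response factor, a muscle and growth regulator, is known to bind. They are printed because both genes rose together and both hold this motif, the CArG box, within the 250 bases before their start. The windows are from RefSeq on GRCm38.p6 and are written 5′ to 3′ on the gene's strand, with the CArG box in capitals. Actc1 lies at chr2:114052876-114053125 on the minus strand with the box beginning 47 bases before the start, and Myl7 at chr11:5898783-5899032 on the minus strand with the box 61 bases before the start.
Actc1: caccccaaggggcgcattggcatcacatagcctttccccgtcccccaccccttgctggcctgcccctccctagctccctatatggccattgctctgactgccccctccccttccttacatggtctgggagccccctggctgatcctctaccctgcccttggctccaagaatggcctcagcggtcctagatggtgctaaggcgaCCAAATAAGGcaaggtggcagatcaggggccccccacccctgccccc
Myl7: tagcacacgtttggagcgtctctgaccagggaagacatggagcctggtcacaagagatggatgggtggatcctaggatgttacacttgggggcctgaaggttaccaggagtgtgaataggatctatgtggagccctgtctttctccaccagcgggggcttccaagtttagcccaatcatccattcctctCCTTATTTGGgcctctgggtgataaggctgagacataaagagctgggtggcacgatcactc
Of 19 sarcomere genes with a window in the table, 6 held the box on either strand (31.6%), against 439 of all 27025 genes with a window (1.62%) and 19 of the 557 genes that were higher at day 9 and had one (3.41%). The 6 were Actc1, Myl7, Ldb3, Myom1, Myl3 and Nebl. The first 4 rose, Myl3 did not pass (14.8, 9.27 and 1.41 FPKM at day 6, 13.5, 20.1 and 8.26 FPKM at day 9, log2 fold change 0.95, adjusted p = 0.259), and Nebl was under the level tested. None of the 19 held the other motif searched, GAAA followed by any 2 bases and GAAA again. A match describes these letters in this window and is not a measured binding site.

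**Figure D2:**
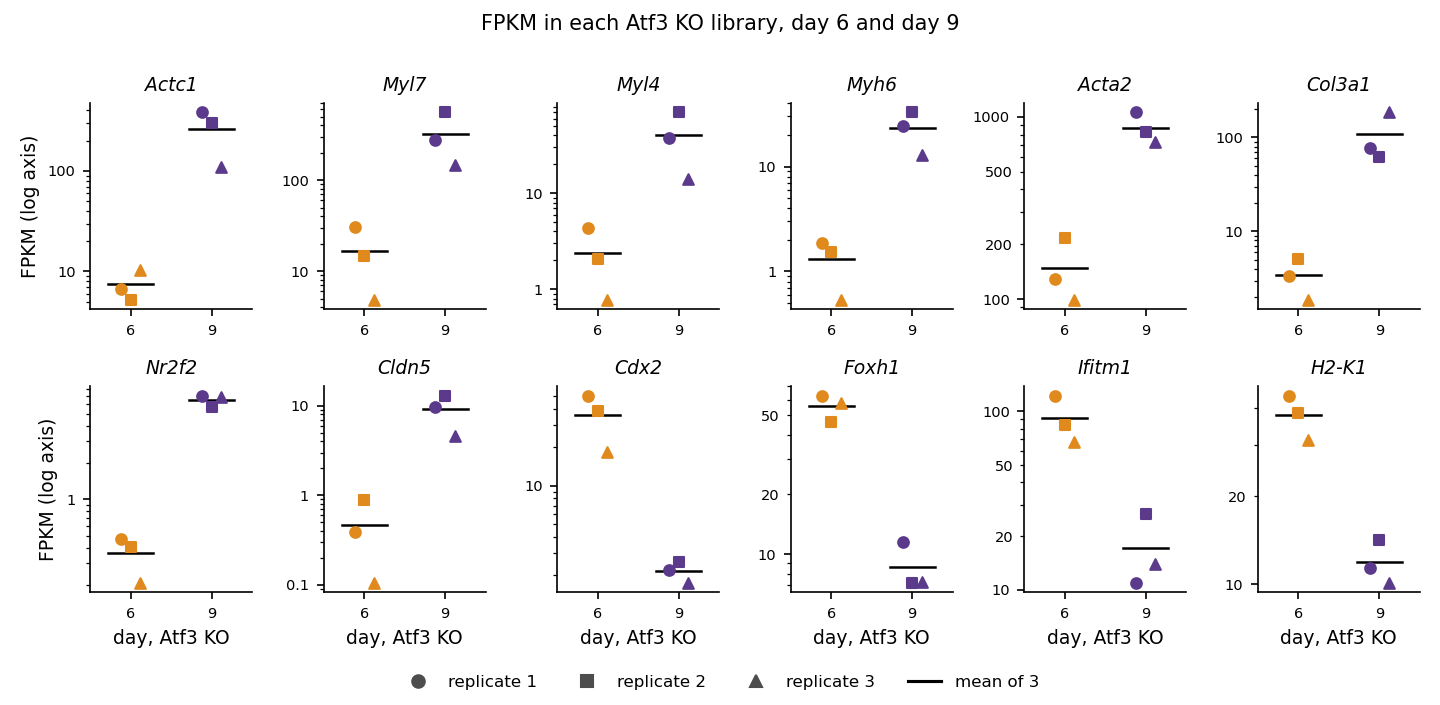
FPKM on a log axis in each of the 6 Atf3 KO libraries for 12 genes, with replicates as symbols and the mean of 3 as a bar. In every panel the day 6 and day 9 values do not overlap. Nr2f2 and Cldn5 entered the test through day 9 values alone, so their lack of overlap was fixed in advance.

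Some genes for calcium handling and heart hormones rose too. Only 6 of 15 were abundant enough to test and 4 rose, 3 of them through day 9 values alone. The sodium-calcium exchanger Slc8a1 was at 0.157, 0.203 and 0.135 FPKM and then 6.24, 4.25 and 4.64 FPKM (log2 fold change 2.36 ± 0.20 (SE), limma adjusted p = 8.09e-08). Atrial natriuretic peptide, Nppa, was at 0.534, 0.626 and 0.344 FPKM and then 2.65, 6.35 and 9.96 FPKM (log2 fold change 2.15 ± 0.25 (SE), adjusted p = 5.42e-06). Brain natriuretic peptide, Nppb, differed more between libraries, at 0.591, 1.11 and 3.56 FPKM and then 4.83, 11.5 and 29.7 FPKM (log2 fold change 2.40 ± 0.42 (SE), adjusted p = 0.000486), with day 6 replicate 3 close below the lowest day 9 value. The pacemaker channel Hcn4 rose from 0.468, 0.319 and 0.69 FPKM to 3.37, 4.4 and 1.36 FPKM. With the spread of the 6 libraries alone, Nppb and Hcn4 no longer passed (adjusted p = 0.12 and 0.085). The 2 that still passed, Slc8a1 and Nppa, had entered through day 9 values alone and had to differ. Ryr2, the calcium-release channel of the sarcoplasmic reticulum, and Pln, which restrains its pump, were listed under 1 FPKM in all 6 libraries.

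Transcription factors of the heart went in both directions. Of 12 tested, 6 rose, 2 of them through day 9 values alone, 2 fell and 4 did not pass (median log2 fold change 0.82, or 1.34 with TPM). Smyd1, a muscle methyltransferase needed for sarcomere assembly, was at 1.08, 0.905 and 0.775 FPKM at day 6 and 15.7, 12.2 and 4.15 FPKM at day 9 (log2 fold change 2.44 ± 0.26 (SE), limma adjusted p = 1.91e-06). Gata6 rose from 6.96, 7.34 and 5.87 FPKM to 18.6, 29 and 45.1 FPKM (log2 fold change 1.96 ± 0.24 (SE), adjusted p = 8.23e-06), and its day 6 values lay close together. Gata5, another zinc-finger factor of the early heart, went from 0.958, 0.248 and 0.121 FPKM to 5.53, 9.62 and 2.3 FPKM (log2 fold change 2.13 ± 0.31 (SE)), and Hand2, of the second heart field, from 22.5, 14 and 3.95 FPKM to 28.3, 66.5 and 57.1 FPKM (log2 fold change 2.01 ± 0.49 (SE)). Both calls ended with the spread of the 6 libraries alone (adjusted p = 0.0566 and 0.159). Its relative Hand1, of extraembryonic mesoderm and the first heart field, went the other way, from 337, 304 and 196 FPKM down to 62, 95.8 and 76.1 FPKM (log2 fold change -1.81 ± 0.25 (SE), adjusted p = 3.67e-05). Tbx3 fell from 18.5, 12.4 and 7.21 FPKM to 3.03, 3.97 and 1.66 FPKM (log2 fold change -1.78 ± 0.39 (SE), adjusted p = 0.00397), with an adjusted p of 0.0624 from the 6 libraries alone. Nkx2-5, a core heart factor, spread widely within both days, at 5.57, 4.16 and 0.651 FPKM and 5.13, 8.5 and 1.57 FPKM, and did not pass (adjusted p = 0.574). Gata4 was at 17.6, 19.1 and 8.38 FPKM and 18.7, 21.5 and 16.2 FPKM and did not pass either (adjusted p = 0.403).

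Smooth muscle genes rose as well, and Acta2 was 1 of the most abundant mRNAs at day 9. Of 12 tested, 7 rose, 1 of them (Lmod1) through day 9 values alone, and none fell (median 1.13). With TPM, with the 6 libraries alone, or without day 6 replicate 1 or day 9 replicate 1, 5 rose. Acta2, smooth muscle alpha-actin, was at 130, 217 and 99.5 FPKM at day 6 and 1059, 830 and 726 FPKM at day 9 (log2 fold change 2.60 ± 0.42 (SE), limma adjusted p = 0.000227). Enteric actin Actg2 went from 0.593, 1.08 and 0.319 FPKM to 6.12, 6.74 and 19.1 FPKM (log2 fold change 2.66 ± 0.32 (SE), adjusted p = 6.51e-06), with its highest value in replicate 3. The regulatory light chain Myl9 went from 15.7, 17.2 and 10.8 FPKM to 81.7, 96.4 and 47 FPKM (log2 fold change 2.25 ± 0.33 (SE), adjusted p = 6.91e-05). None of the 3 genes overlapped between days. Desmin, Des, the muscle intermediate filament, rose from 8.61, 5.87 and 3.07 FPKM to 13.3, 21.3 and 24.2 FPKM, a call that the 6 libraries alone did not give (adjusted p = 0.0762). Myh11 and Myocd, which define differentiated smooth muscle, were under the level tested, and the 6 smooth muscle markers summed to 197 to 329 FPKM at day 6 and 1020 to 1408 FPKM at day 9. Skeletal muscle did not take part: Myod1, Myog and Myf5 summed to at most 0.108 FPKM in any of the 6 libraries, and fast troponin T, Tnnt3, fell from 24.5, 15.3 and 8.31 FPKM to 3.49, 4.1 and 2.01 FPKM (log2 fold change -1.94 ± 0.34 (SE), adjusted p = 0.00054; 0.0565 from the 6 libraries alone). The CArG box also lay in the window of Myl9, at chr2:156775214-156775463 on the plus strand, 161 bases before the start, shown for comparison with the sarcomere genes above.
Myl9: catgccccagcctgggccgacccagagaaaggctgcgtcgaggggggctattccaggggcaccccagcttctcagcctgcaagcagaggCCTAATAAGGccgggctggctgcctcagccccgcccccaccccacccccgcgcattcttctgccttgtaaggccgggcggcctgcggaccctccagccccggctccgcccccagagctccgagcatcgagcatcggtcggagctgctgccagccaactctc
Of 12 smooth muscle genes with a window, 2 held the box (16.7%), Myl9 and skeletal alpha-actin Acta1. Acta1 was at 18.8, 18.5 and 20.4 FPKM and then 21.9, 31.1 and 51.3 FPKM and did not pass (log2 fold change 0.74, adjusted p = 0.191).

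Most collagen genes rose. All 15 fibrillar and network collagens were tested and had positive fold changes, and 12 rose (median 1.15), 4 of them through day 9 values alone. Col3a1, the fibrillar collagen of soft connective tissue, was at 3.34, 5.12 and 1.88 FPKM at day 6 and 77.7, 62.1 and 184 FPKM at day 9 (log2 fold change 4.52 ± 0.35 (SE), limma adjusted p = 1.88e-08). This was the second-highest log2 fold change among the genes that the naming rule selected, after Actc1. Col2a1, the cartilage collagen, was at 2.15, 0.677 and 0.736 FPKM and then 42.8, 12.3 and 7.97 FPKM (log2 fold change 3.05 ± 0.36 (SE), adjusted p = 6.31e-06), and day 9 replicate 1 was far above the other 2. Col1a2, a chain of type I collagen, went from 5.67, 7.6 and 2.63 FPKM to 26.6, 16.6 and 46.9 FPKM (log2 fold change 2.27 ± 0.30 (SE), adjusted p = 2.33e-05), and Col14a1, which sits on collagen fibrils, from 0.118, 0.0772 and 0.0425 FPKM to 2.69, 4.75 and 7.23 FPKM (log2 fold change 2.37 ± 0.20 (SE), adjusted p = 6.62e-08). With the spread of the 6 libraries alone 4 collagens passed, and without day 9 replicate 3, which had the most Col3a1 and Col1a2, 8 passed, and 9 passed without day 6 replicate 3. Of 18 other fibroblast and matrix genes tested, 10 rose and none fell (median 0.97), and 2 passed with the 6 libraries alone. Tenascin C, Tnc, was at 1.57, 3.8 and 7.32 FPKM and then 52.4, 21 and 23.6 FPKM (log2 fold change 2.71 ± 0.35 (SE), adjusted p = 1.83e-05). Lumican, Lum, and periostin, Postn, rested largely on 1 library: Lum was at 2.37, 7.81 and 43 FPKM and Postn at 2.72, 14.6 and 39.5 FPKM at day 9, from at most 1.64 and 3.09 FPKM at day 6. Without day 9 replicate 3 their log2 fold changes were 1.61 and 1.56, in place of 2.62 and 2.36. Neither passed with the 6 libraries alone (adjusted p = 0.202 and 0.228).

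The epicardium, the outer cell layer of the heart, is marked by a small group of genes, and most of those tested rose. Of 10 listed, 5 were tested and 4 rose, Wt1 through day 9 values alone (median 1.36). Without day 9 replicate 3, 3 rose and the median was 0.84. Tcf21 was at 1.14, 0.784 and 0.338 FPKM at day 6 and 4.71, 7.84 and 14.2 FPKM at day 9 (log2 fold change 2.41 ± 0.23 (SE), limma adjusted p = 3.58e-07), and Aldh1a2, which makes retinoic acid, at 2.12, 1.51 and 1.75 FPKM and then 4.41, 5.41 and 6.61 FPKM (log2 fold change 1.21 ± 0.21 (SE), adjusted p = 0.000423). Wt1 was at 1.33, 1.69 and 6.43 FPKM at day 9 after at most 0.873 FPKM at day 6 (log2 fold change 1.36, adjusted p = 0.00611), and Bnc1 at 1.04, 3.36 and 14.6 FPKM (log2 fold change 1.41, adjusted p = 0.0332). Both were highest by far in day 9 replicate 3. Bnc1 did not pass without that library (adjusted p = 0.174) or without day 6 replicate 1 or 2 (adjusted p = 0.0908 and 0.115), and the log2 fold change of Wt1 without day 9 replicate 3 was 0.84. Neither gene passed with the spread of the 6 libraries alone (adjusted p = 0.213 and 0.419). Among the 5 epicardial and mesothelial markers, Tbx18, Upk3b and Msln were under the level tested. The 5 summed to 1.97 to 2.01 FPKM at day 6 and 7.72 to 28 FPKM at day 9.

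Vessel-lining genes rose in part. Of 24 endothelial genes tested, 12 rose, 3 of them through day 9 values alone, 1 fell (Tal1, which blood also uses) and 11 did not pass (median 0.80). Without day 6 replicate 3, 12 rose and 3 fell (median 0.52), and without any other of the 6 libraries none fell. The tight-junction gene Cldn5 was at 0.392, 0.881 and 0.105 FPKM at day 6 and 9.76, 13 and 4.63 FPKM at day 9 (log2 fold change 2.73 ± 0.31 (SE), limma adjusted p = 3.62e-06). Icam2, an adhesion molecule, was at 1.31, 2.16 and 0.235 FPKM and then 7.53, 8.11 and 4.48 FPKM (log2 fold change 1.85 ± 0.25 (SE), adjusted p = 3.25e-05), and Plvap, of capillary diaphragms, at 2.18, 4.63 and 0.899 FPKM and then 11.3, 14.9 and 6.64 FPKM (log2 fold change 1.82 ± 0.34 (SE), adjusted p = 0.000936). Day 6 replicate 3 was the lowest of the 6 for all 3 genes. The VEGF receptor Kdr, for which it was the highest of the day 6 libraries, also rose, from 2.04, 1.58 and 2.9 FPKM to 6.28, 6.15 and 11.3 FPKM (log2 fold change 1.46 ± 0.28 (SE), adjusted p = 0.00124). With the spread of the 6 libraries alone 2 endothelial genes passed, and Icam2, Plvap and Kdr did not (adjusted p = 0.0567, 0.0937 and 0.0519). The 2, Cldn5 and Emcn, had entered through day 9 values alone, so they had to differ. Among 14 arterial, venous and lymphatic genes tested, 4 rose, Nr2f2 through day 9 values alone, and without day 9 replicate 1 another gene fell. Nr2f2, the vein-specifying orphan receptor, was at 0.471, 0.408 and 0.207 FPKM and then 7.07, 5.71 and 6.87 FPKM (log2 fold change 2.47 ± 0.13 (SE), adjusted p = 1.15e-10). Efnb2, the arterial ephrin, was at 2.26, 3.27 and 5.99 FPKM and then 14.3, 12.6 and 19.5 FPKM (log2 fold change 1.82 ± 0.30 (SE), adjusted p = 0.00034). The Notch target Hey1 was at 0.763, 0.581 and 1.52 FPKM and then 7.08, 7.02 and 4.49 FPKM (log2 fold change 1.89 ± 0.27 (SE), adjusted p = 4.93e-05), and the Notch ligand Jag1 at 0.539, 0.353 and 2.08 FPKM and then 9.83, 4.34 and 4.69 FPKM (log2 fold change 1.89 ± 0.35 (SE), adjusted p = 0.00102; 0.0624 from the 6 libraries alone). Of 11 Notch genes tested, Hey1 and Jag1 were the 2 that rose.

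Most globins were lower in every day 9 library than in 2 of the 3 day 6 libraries. The embryonic beta-type globin Hbb-bh1 was at 1376, 1722 and 126 FPKM at day 6 and 50.2, 203 and 141 FPKM at day 9, and replicate 3 at day 6 fell inside the day 9 range. Its log2 fold change was -2.56 ± 0.75 (SE) (limma adjusted p = 0.0331) with all libraries and -3.76 (adjusted p = 0.000205) without that library. The call ended without day 6 replicate 1 or 2 or day 9 replicate 1 or 3 (adjusted p = 0.163, 0.199, 0.203 and 0.069) with the 6 libraries alone (0.306) and with TPM (0.118). Of 6 tested genes of the list of embryonic and adult globins it was the 1 that passed. Without day 6 replicate 3, 5 of the 6 were lower, and the list median was -2.78 in place of -1.23. None passed without day 6 replicate 1 (median -0.34), day 6 replicate 2 (-0.56), day 9 replicate 1 (-0.58) or day 9 replicate 3 (-1.66). Hba-x, the embryonic alpha-type globin, was at 600, 668 and 31.1 FPKM and then 34.3, 162 and 120 FPKM (log2 fold change -1.40, adjusted p = 0.37). Hbb-y, another embryonic globin, was at 71.8, 86.5 and 2.82 FPKM and then 24.7, 66.6 and 135 FPKM and had the 1 positive fold change of the list (1.09, adjusted p = 0.474). Among 13 erythroid regulators and haem-synthesis genes, Klf1 and Tal1, both blood transcription factors, passed, lower at day 9. Klf1 was at 3.32, 5.74 and 0.551 FPKM and then 0.147, 1.08 and 0.483 FPKM (log2 fold change -1.23, adjusted p = 0.0191; -1.82 without day 6 replicate 3), and it did not pass without day 6 replicate 1 or 2 or day 9 replicate 1 or 3 (log2 fold change -0.77 without day 6 replicate 2; adjusted p = 0.0883, 0.148, 0.114 and 0.0644). Tal1, at 3.1, 4.61 and 1.05 FPKM and then 1.25, 1.03 and 1.2 FPKM (log2 fold change -0.74, adjusted p = 0.0453; -1.15 without day 6 replicate 3), lost its call when any other of the 6 libraries was left out (adjusted p = 0.0922 to 0.299); without day 6 replicate 2 its log2 fold change was -0.43. Without day 6 replicate 3, 5 of these 13 genes were lower and none higher, and none was lower without day 6 replicate 1 or 2 or day 9 replicate 1 or 3. Gata1 was under the level tested. Cd34, found on blood progenitors and on vessel lining, rose from 0.519, 0.906 and 0.266 FPKM to 5.68, 3.23 and 4.2 FPKM (log2 fold change 1.77 ± 0.17 (SE), adjusted p = 2.67e-07). The leukocyte markers Ptprc, Spi1, Tyrobp and Cx3cr1 were under the level tested.

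**Figure D3:**
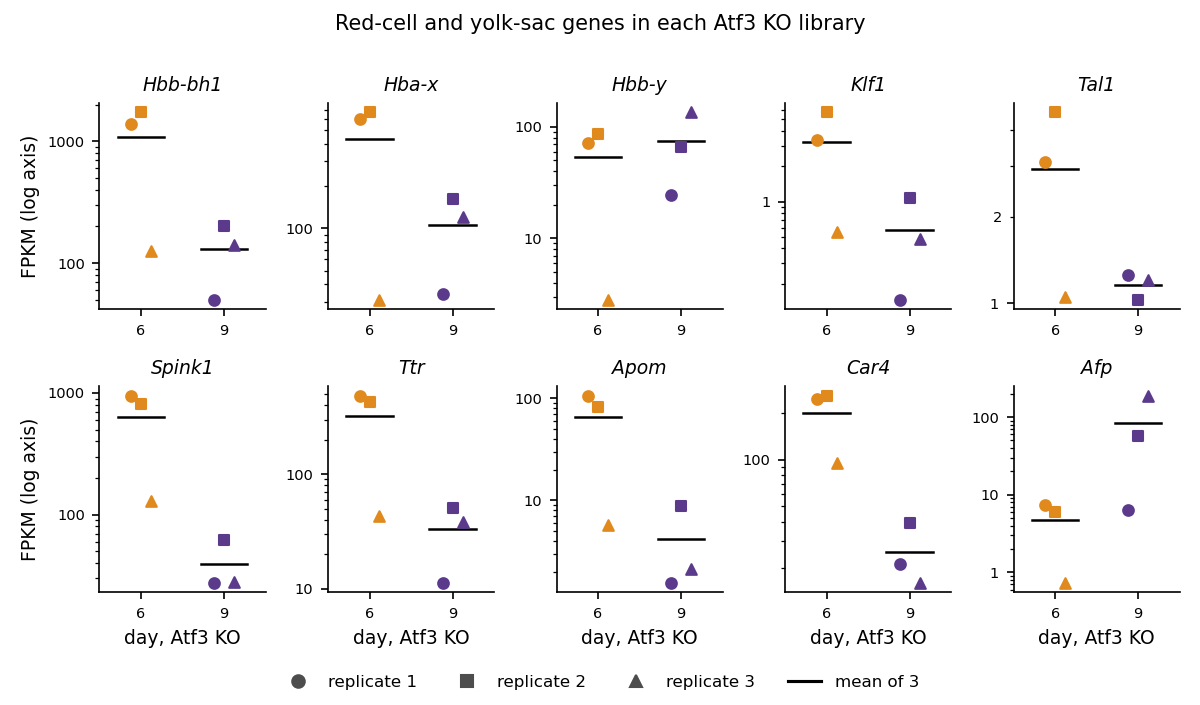
FPKM on a log axis of 10 red-cell and yolk-sac genes in each Atf3 KO library, replicates as symbols and the mean of 3 as a bar. Replicate 3 at day 6 (triangle) lies below the other 2 day 6 libraries in every panel, for example 126 against 1376 and 1722 FPKM for Hbb-bh1.

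Among yolk-sac genes more fell than rose. Of 24 listed, 12 were tested, 5 fell and 1 rose (median -0.83; without day 6 replicate 3, 7 fell and 1 rose, median -1.25), and none passed with the spread of the 6 libraries alone. With day 6 replicate 1 left out, 2 fell (median -0.74), without day 6 replicate 2, 3 fell (median -0.62), and without day 9 replicate 1, 3 fell (median -0.46). Spink1, a trypsin inhibitor abundant in visceral endoderm, was at 951, 814 and 130 FPKM at day 6 and 27.6, 62 and 28 FPKM at day 9 (log2 fold change -3.64 ± 0.55 (SE), limma adjusted p = 0.000102; 0.0567 from the 6 libraries alone). The groups did not overlap, since even day 6 replicate 3 was above the highest day 9 value. Transthyretin, Ttr, was at 486, 429 and 43.3 FPKM and then 11.2, 50.6 and 38.5 FPKM (log2 fold change -2.85, adjusted p = 0.00761; -3.97 without day 6 replicate 3), and it did not pass without day 6 replicate 1 or 2 or day 9 replicate 1 (adjusted p = 0.0598, 0.058 and 0.0666). Apolipoprotein M, Apom, was at 106, 82.6 and 5.68 FPKM and then 1.55, 8.84 and 2.12 FPKM (log2 fold change -3.19, adjusted p = 0.00606; adjusted p = 0.0512 without day 6 replicate 1 and 0.213 from the 6 libraries alone), and the groups overlapped through day 6 replicate 3. Cited1, a transcriptional co-regulator, was at 70.8, 48.5 and 14.3 FPKM and then 6.48, 8.33 and 2.99 FPKM (log2 fold change -2.54 ± 0.45 (SE), adjusted p = 0.000551; 0.0823 from the 6 libraries alone), with no overlap. Alpha-fetoprotein, Afp, the yolk-sac carrier protein, instead was at 7.48, 5.98 and 0.737 FPKM and then 6.3, 56.6 and 189 FPKM (log2 fold change 3.20 ± 0.72 (SE), adjusted p = 0.00573; 0.255 from the 6 libraries alone). Its day 9 replicate 1 lay inside the day 6 range, and without replicate 3 the log2 fold change was 2.13. The red-cell and visceral endoderm markers were low together in day 6 replicate 3 and their part in these falls was not tested. Spink1 and Cited1 were lower in each day 9 library than in that library.

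Some trophoblast and epithelial genes fell. Of 10 trophoblast and placenta genes tested, 3 fell, Cdx2, Hand1 and Plac1, and 1 rose, Krt7, whose call ended without day 6 replicate 3 or day 9 replicate 2 or 3 (limma adjusted p = 0.103, 0.119 and 0.132). Plac1, a placental gene, was at 8.27, 9.71 and 7.4 FPKM and then 1.48, 4.14 and 3.34 FPKM (log2 fold change -1.30 ± 0.22 (SE), adjusted p = 0.000319), which did not pass with TPM (adjusted p = 0.175) or with the 6 libraries alone (0.085). Elf5 and Tpbpa, which define trophoblast, were under the level tested and Prl3d1 was listed at 0 in all 6 libraries. Phlda2, an imprinted placental growth restrainer, was at 29.6, 14.3 and 26.3 FPKM and then 1.48, 4.9 and 2.27 FPKM (log2 fold change -2.69 ± 0.42 (SE), adjusted p = 0.000144). Of 10 simple-epithelium genes tested, 4 fell and 1, Krt7, rose (median -0.65; without day 9 replicate 1, 3 fell and the median was -0.42). Keratins Krt18 and Krt8, the paired filaments of simple epithelium, were among the more abundant mRNAs: Krt18 was at 1238, 1057 and 784 FPKM and then 321, 589 and 466 FPKM (log2 fold change -1.18 ± 0.23 (SE), adjusted p = 0.00145), and Krt8 was at 980, 898 and 830 FPKM and then 317, 492 and 460 FPKM (log2 fold change -1.11 ± 0.22 (SE), adjusted p = 0.00205). Their values did not overlap between days, but neither call held with TPM (adjusted p = 0.301 and 0.508) or with the 6 libraries alone (0.168 and 0.127), and with these settings none of the 10 genes passed. Car4, a membrane carbonic anhydrase, fell further, from 247, 258 and 94.6 FPKM to 21.5, 39.1 and 16.2 FPKM (log2 fold change -2.88 ± 0.37 (SE), adjusted p = 1.57e-05). Prss1, a trypsinogen, fell from 13, 9.15 and 3.64 FPKM to 0.614, 0.546 and 0.0918 FPKM (log2 fold change -2.64 ± 0.30 (SE), adjusted p = 3.25e-06).

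Several streak and posterior genes fell. Cdx2, the caudal homeobox factor of posterior mesoderm and trophoblast, was at 50.5, 38.3 and 18.4 FPKM at day 6 and 2.19, 2.55 and 1.75 FPKM at day 9 (log2 fold change -3.44 ± 0.26 (SE), limma adjusted p = 1.88e-08). Every day 9 library was under 3 FPKM. Evx1, another posterior streak factor, fell from 5.62, 3.43 and 4.55 FPKM to 1.12, 1.6 and 0.809 FPKM (log2 fold change -1.34 ± 0.26 (SE), adjusted p = 0.00149), and these were the 2 calls among 9 streak and mesendoderm genes tested. The streak markers Mixl1, Eomes and Mesp1 were under the level tested on both days. T (brachyury), the streak's defining factor, was at 1.28, 0.164 and 4.35 FPKM and then 16.7, 0.997 and 0.383 FPKM, and its day 9 replicate 1 was far above the other 5 libraries (adjusted p = 0.636). Fgf3, a posterior growth factor, fell from 20.5, 9.01 and 6.04 FPKM to 1.58, 0.614 and 0.223 FPKM (log2 fold change -2.74 ± 0.40 (SE), adjusted p = 7.23e-05). Foxh1, the Smad partner of Nodal signalling, fell from 62.8, 46.3 and 57.9 FPKM to 11.5, 7.2 and 7.27 FPKM (log2 fold change -2.57 ± 0.24 (SE), adjusted p = 2.67e-07). Of 20 Hox and Cdx genes tested, 7 fell and 2 rose (median -0.36), and 5 of the tested genes entered through day 6 values alone, with no day 9 library at 1 FPKM. Of these, Hoxb6, Hoxb8, Hoxc8 and Hoxc10 were among the 7 that fell, and they had to fall. Hoxb6 went from 4.56, 3.2 and 3.16 FPKM to 0.32, 0.168 and 0.113 FPKM (log2 fold change -1.94 ± 0.15 (SE), adjusted p = 1.88e-08) and Hoxb8 from 3.5, 2.49 and 2.54 FPKM to 0.836, 0.417 and 0.168 FPKM (log2 fold change -1.40 ± 0.22 (SE), adjusted p = 0.000154). Among them 4 rose without WT day 6 replicate 3 or WT day 9 replicate 1, and 6 fell and 1 rose without day 6 replicate 2 or day 9 replicate 3. With TPM the Hox and Cdx counts were 3 lower and 4 higher, and with the 6 libraries alone 3 lower and none higher.

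Later mesoderm genes split. Of 15 lateral and paraxial mesoderm genes tested, 6 rose and 3 fell (median 0.74), with 3 of the risen genes under 1 FPKM in every day 6 library. Without day 6 replicate 1 or day 9 replicate 1 or 3, 1 fell, and without day 9 replicate 2 the median was 0.48. Among members with a mean FPKM of at least 5, 1 rose and 3 fell, and the median was -0.27. Twist1, a factor of mesenchyme, was at 7.88, 5.22 and 4.79 FPKM at day 6 and 32.8, 36.2 and 17 FPKM at day 9 (log2 fold change 2.05 ± 0.25 (SE), limma adjusted p = 9.08e-06). Osr1, of lateral plate and kidney mesoderm, was at 0.715, 0.262 and 0.0721 FPKM and then 6.16, 4.28 and 2.33 FPKM (log2 fold change 1.92 ± 0.22 (SE), adjusted p = 3.51e-06), and Foxc2, of paraxial mesoderm and vessels, at 0.203, 0.258 and 0.109 FPKM and then 5.46, 2.88 and 2.16 FPKM (log2 fold change 1.85 ± 0.23 (SE), adjusted p = 9.53e-06). Msx2, a BMP-responsive homeobox gene, fell from 18.2, 20.2 and 22.9 FPKM to 7.59, 6.4 and 3.48 FPKM (log2 fold change -1.70 ± 0.21 (SE), adjusted p = 8.23e-06). Ptn, the secreted growth factor pleiotrophin, was at 0.592, 0.805 and 0.434 FPKM and then 17, 27 and 39 FPKM (log2 fold change 4.08 ± 0.22 (SE), adjusted p = 1.48e-10). Lbh, a heart and limb co-regulator, was at 3.45, 2.9 and 1.38 FPKM and then 41, 36.8 and 28.3 FPKM (log2 fold change 3.38 ± 0.28 (SE), adjusted p = 3.98e-08). Mab21l2, needed for the ventral body wall and eye, was at 0.484, 0.409 and 0.244 FPKM and then 4.13, 13.7 and 26.1 FPKM (log2 fold change 3.21 ± 0.34 (SE), adjusted p = 1.59e-06). For Twist1, Msx2 and Lbh, which had values over 1 FPKM on both days, the days did not overlap and no alternative run ended the call. Osr1, Foxc2, Ptn and Mab21l2 had to differ, since they entered through day 9 alone.

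Pluripotency genes gave no single direction. Of 13 naive-state genes tested, Tbx3 fell and 12 did not pass. The median of the 13 was 0.74 and day 9 replicate 1 was low for them: Dppa5a, the most abundant, was at 54.9, 28.8 and 34.7 FPKM at day 6 and 30.2, 214 and 102 FPKM at day 9 (limma adjusted p = 0.18), and the 4 naive stem cell markers summed to 9.86 FPKM in day 9 replicate 1 and to 28.9 and 27.1 FPKM in replicates 2 and 3. Without day 9 replicate 1, 5 naive-state genes rose and the median was 1.2, and without day 6 replicate 2 or day 9 replicate 3 none rose and it was 0.45 and 0.48. Pou5f1, a core factor, was at 23, 15.3 and 26.5 FPKM and 10.6, 45.3 and 34.9 FPKM, with day 9 replicate 1 again the lowest of its day (adjusted p = 0.775). Of 14 core and primed genes, 5 rose and 2 fell (median 0.55). There were 2 rises and 1 fall without day 6 replicate 1 or 2 or day 9 replicate 3 (medians 0.56, 0.43 and 0.30), without day 9 replicate 1, 3 rose and 1 fell (1.03), and without day 9 replicate 2, 4 rose and 1 fell (0.20). Lin28a, the let-7 antagonist, fell from 130, 117 and 95.2 FPKM to 41.8, 27 and 18.8 FPKM (log2 fold change -1.99 ± 0.28 (SE), adjusted p = 4.04e-05). Sox2, shared by stem cells and neural cells, rose from 3.77, 2.92 and 3.5 FPKM to 13.1, 9.19 and 12.3 FPKM (log2 fold change 1.5 ± 0.32 (SE), adjusted p = 0.00365). Of 16 neural genes listed, 5 were tested and 4 rose (median 1.15, or 0.76 without day 9 replicate 1). With TPM 2 rose. With any of the 6 libraries left out except day 6 replicate 2, 3 rose. Nestin, Nes, among the 4, was at 7.9, 8.82 and 9.51 FPKM and then 16.4, 15.7 and 15.2 FPKM (log2 fold change 0.79 ± 0.16 (SE), limma adjusted p = 0.0019). Nes did not pass with TPM (adjusted p = 0.0992) or the 6 libraries alone (0.0992), where none of the 5 passed. Sox1, Pax6 and Neurog2 were under the level tested.

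**Figure D4:**
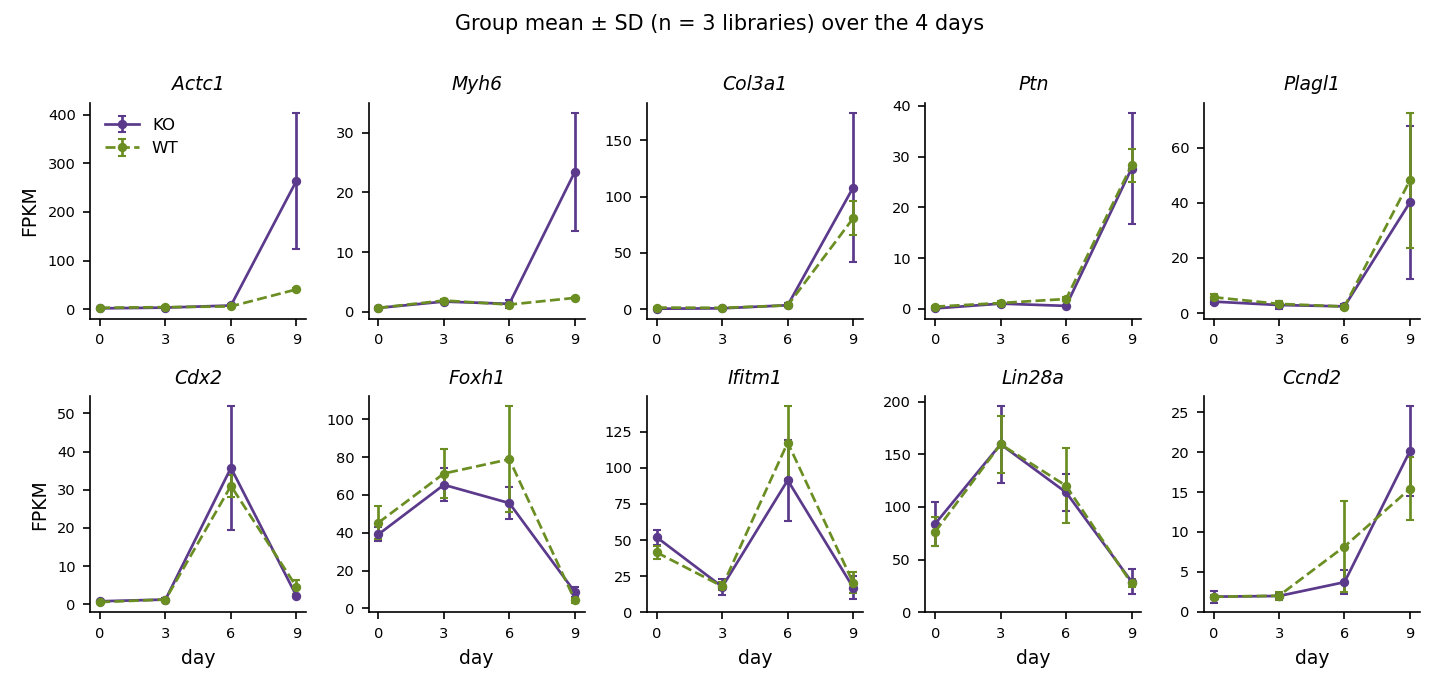
Mean FPKM ± SD (n = 3 libraries) of 10 genes at days 0, 3, 6 and 9 in Atf3 KO (solid) and WT (dashed) cells. The 4 genes Actc1, Myh6, Col3a1 and Ptn stay low in KO cells until day 6 and are high only at day 9 (Actc1 264 ± 141 FPKM), while Cdx2 is high only at day 6 (35.8 ± 16.2 FPKM).

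The days before the step showed when these genes had come on. In KO cells Actc1 averaged 1.5 ± 1.48 FPKM (SD, n = 3) at day 0, 3 ± 1.8 FPKM at day 3 and 7.43 ± 2.6 FPKM at day 6, and then 264 ± 141 FPKM at day 9. Cdx2 averaged 0.753 ± 0.125 FPKM at day 0 and 1.2 ± 0.399 FPKM at day 3, then 35.8 ± 16.2 FPKM at day 6 before 2.16 ± 0.402 FPKM at day 9, so it was high at day 6 alone. Lin28a was highest at day 3 (160 ± 36.6 FPKM, after 84.1 ± 21.1 FPKM at day 0), with 114 ± 17.4 FPKM at day 6 and 29.2 ± 11.7 FPKM at day 9. Ifitm1, described next, went from 51.9 ± 5.33 FPKM at day 0 to 17.6 ± 5.43 FPKM at day 3, and from 91.4 ± 28.1 FPKM at day 6 to 17.2 ± 8.24 FPKM at day 9.

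Interferon-responsive and class I antigen-presentation genes fell, and none of those tested rose. Of 17 listed, 12 were tested, 8 fell and none rose, and 11 of the 12 had negative fold changes (median -1.11, against -0.03 for all genes). Of the 8, Tap2 entered through day 6 values alone, so it had to fall, and its call ended in 10 alternatives. With the spread of the 6 libraries alone 5 fell, and with TPM 3 fell (median -0.83 against 0.37 for all genes). Ifitm1, an interferon-induced membrane protein also known from early mesoderm, was at 122, 84.2 and 67.6 FPKM at day 6 and 11, 26.5 and 14 FPKM at day 9 (log2 fold change -2.40 ± 0.30 (SE), limma adjusted p = 1.25e-05). Its neighbour Ifitm3 was at 176, 124 and 129 FPKM and then 37.9, 55.4 and 43 FPKM (log2 fold change -1.63 ± 0.22 (SE), adjusted p = 2.51e-05; 0.103 with TPM). Bst2, the tetherin that holds enveloped viruses at the cell surface, was at 74.3, 59.8 and 46.8 FPKM and then 9.71, 21.4 and 17.7 FPKM (log2 fold change -1.87 ± 0.28 (SE), adjusted p = 0.000116). The immunoproteasome subunit Psmb8 was at 9.24, 2.87 and 8.72 FPKM and then 1.97, 0.984 and 0.865 FPKM (log2 fold change -1.71 ± 0.29 (SE), adjusted p = 0.000371; 0.0895 from the 6 libraries alone). The class I heavy chain H2-K1, chosen after its values were seen, was at 44.2, 38.6 and 31.1 FPKM and then 11.4, 14.2 and 10.1 FPKM (log2 fold change -1.59 ± 0.22 (SE), adjusted p = 3.22e-05), a call that TPM did not give (adjusted p = 0.0743). The values of these 5 genes did not overlap between days. Their partner beta-2-microglobulin, B2m, was at 49.4, 63.7 and 76.9 FPKM and 44, 51.7 and 66.9 FPKM, which overlapped (adjusted p = 0.824). The class I heavy chains and the Ifitm genes are close paralogs, so their separate levels are less certain.

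Many interferon-stimulated genes carry repeated GAAA letters near their start, the core of the interferon-stimulated response element. The motif, GAAA followed by any 2 bases and GAAA again, was searched on both strands in the 250 bases before the start (RefSeq, GRCm38.p6), and 2 windows that hold it are printed, 1 of a gene that fell and 1 of a gene that did not pass. Bst2 lies at chr8:71537473-71537722 on the minus strand, with 2 overlapping matches that begin 130 and 124 bases before the start, and B2m at chr2:122147437-122147686 on the plus strand, with 1 match 139 bases before the start. Matches are in capitals.
Bst2: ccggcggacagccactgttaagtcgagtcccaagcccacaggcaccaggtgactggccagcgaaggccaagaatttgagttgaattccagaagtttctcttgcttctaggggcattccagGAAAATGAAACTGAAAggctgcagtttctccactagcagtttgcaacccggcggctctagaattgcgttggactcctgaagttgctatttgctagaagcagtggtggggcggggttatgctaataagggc
B2m: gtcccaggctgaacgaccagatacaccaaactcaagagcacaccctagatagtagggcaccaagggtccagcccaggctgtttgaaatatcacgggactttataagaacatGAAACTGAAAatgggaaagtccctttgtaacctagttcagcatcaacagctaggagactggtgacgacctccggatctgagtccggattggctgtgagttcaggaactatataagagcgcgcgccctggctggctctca
Of 15 listed genes with a window, 6 held the motif (40%): B2m, Bst2, Ifit1, Ifit3, Ifitm2 and Isg15. Among all 27025 genes with a window the share was 3.46%, and among the 236 genes lower at day 9 that had one it was 4.24% (10 genes). Genes with the motif fell or did not pass: Bst2 and Isg15 fell, B2m and Ifitm2 did not pass, and Ifit1 and Ifit3 were under the level tested. The call of Isg15 ended in 8 alternatives, among them TPM, equal sums and the 6 libraries alone. The 8 include the runs without day 6 replicate 1, day 6 replicate 3 (limma adjusted p = 0.0542) or day 9 replicate 1. None of the 15 held a CArG box.

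Signalling genes changed member by member. Of 23 Wnt genes tested, 8 rose and 2 fell (7 and none with TPM). Sfrp1, a secreted Wnt antagonist, was at 3.78, 1.25 and 1.68 FPKM at day 6 and 21.9, 44.6 and 54.7 FPKM at day 9 (log2 fold change 3.66 ± 0.28 (SE), limma adjusted p = 1.61e-08), and its relative Sfrp2 at 1.72, 1.71 and 2.08 FPKM and then 7.64, 6.3 and 7.35 FPKM (log2 fold change 1.51 ± 0.16 (SE), adjusted p = 1.93e-06). The ligand Wnt2, of the heart fields, was at 1.43, 1.27 and 1.03 FPKM and then 8.31, 17.2 and 12.5 FPKM (log2 fold change 2.56 ± 0.20 (SE), adjusted p = 2.33e-08). The receptor Fzd1 was at 0.484, 1.23 and 2.06 FPKM and then 14.6, 8.73 and 12.3 FPKM (log2 fold change 2.55 ± 0.28 (SE), adjusted p = 2.34e-06). None of these overlapped between days. Of 22 BMP and TGF-beta genes tested, 4 rose and 2 fell, and none fell with TPM, with equal sums, with the 6 libraries alone or without day 9 replicate 3. A single one fell without day 6 replicate 1 or day 9 replicate 1 or 2. The ligand Tgfb3 was at 0.191, 0.608 and 0.191 FPKM and then 2.55, 2.86 and 4.24 FPKM (log2 fold change 1.66 ± 0.14 (SE), adjusted p = 9.75e-08), a gene that entered through day 9 alone. Of 15 FGF and ERK-feedback genes, 2 rose and 2 fell, and 1 rose without day 6 replicate 1 or 3 or day 9 replicate 1 or 3. Dusp6, a phosphatase that ERK signalling induces, was at 4.75, 6.59 and 2.54 FPKM and then 30.6, 13.6 and 23.6 FPKM (log2 fold change 2.07 ± 0.42 (SE), adjusted p = 0.00245), and the growth factor Fgf15 fell from 8.48, 6.39 and 9.61 FPKM to 2.42, 1.42 and 1.75 FPKM (log2 fold change -1.68 ± 0.24 (SE), adjusted p = 5.86e-05). Of 10 retinoid genes, 2 rose and 1 fell (none without day 6 replicate 1 or day 9 replicate 1). The receptor Rarb, which also entered through day 9 alone, was at 0.614, 0.638 and 0.217 FPKM and then 2.48, 2.78 and 4.17 FPKM (log2 fold change 1.47 ± 0.15 (SE), adjusted p = 1.03e-06). The growth-factor receptor Pdgfra was at 2.29, 2.2 and 1.27 FPKM and then 6.73, 5.76 and 8.62 FPKM (log2 fold change 1.46 ± 0.22 (SE), adjusted p = 0.000134), 1 of 4 PDGF, VEGF and angiopoietin genes that rose of 13 tested. Of the 4, Angpt2 entered through day 9 values alone. Among 14 adhesion and integrin genes 4 rose, Itga8 through day 9 values alone (median 0.60; without day 6 replicate 1, 3 rose and the median was 0.31, and without day 6 replicate 3, 6 rose and 1 fell). Itga9, a tenascin-binding integrin, was at 1.98, 1.78 and 1.63 FPKM and then 9.26, 8.92 and 5.15 FPKM (log2 fold change 1.61 ± 0.20 (SE), adjusted p = 8.4e-06). Of 13 imprinted growth genes, 4 rose and Phlda2 fell, and without day 6 replicate 3, 5 rose and 2 fell. Plagl1, an imprinted zinc-finger factor, was at 1.57, 2.2 and 3.5 FPKM and then 18.6, 30.4 and 71.5 FPKM (log2 fold change 3.41 ± 0.40 (SE), adjusted p = 4.56e-06).

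Cell-cycle and energy genes mostly did not pass. Of 25 cell-cycle and replication genes tested, Ccnd2 (cyclin D2) rose, from 5.36, 2.42 and 3.28 FPKM to 26.5, 15.6 and 18.4 FPKM (log2 fold change 2.19 ± 0.33 (SE), limma adjusted p = 9.65e-05), and 24 did not pass (median -0.05). The replicative helicase subunit Mcm7 was at 101, 69.8 and 62.8 FPKM and 79.4, 70.4 and 48.6 FPKM (adjusted p = 0.607). Cdkn2a, which encodes the inhibitors p16 and p19Arf, rose from 9.06, 9.8 and 4.79 FPKM to 24.5, 30.0 and 25.2 FPKM (log2 fold change 1.68 ± 0.31 (SE), adjusted p = 0.000926), and its neighbour Cdkn2b from 4.24, 6.76 and 8.62 FPKM to 17.6, 13.8 and 19.6 FPKM (log2 fold change 1.28 ± 0.27 (SE), adjusted p = 0.00326; 0.0703 from the 6 libraries alone). Of 20 oxidative phosphorylation genes, 1 rose: Cox6a2, the heart and muscle form of a cytochrome oxidase subunit, was listed at 0 in all day 6 libraries and at 2.91, 3.8 and 1.79 FPKM at day 9. The form found in other tissues, Cox6a1, was at 486, 314 and 140 FPKM and 175, 274 and 158 FPKM (adjusted p = 0.483). Of 22 glycolysis and hypoxia genes, 3 rose and 2 fell. With TPM 1 rose and none fell, and 1 rose with the 6 libraries alone or without day 6 replicate 2 or day 9 replicate 1 or 2. The glucose transporters went down, Slc2a3 from 288, 340 and 434 FPKM to 130, 87.1 and 81.7 FPKM (log2 fold change -1.83 ± 0.37 (SE), adjusted p = 0.0024) and Slc2a1 from 251, 352 and 322 FPKM to 122, 112 and 119 FPKM (log2 fold change -1.37 ± 0.28 (SE), adjusted p = 0.0025), with no overlap. TPM gave neither call (adjusted p = 0.301 and 0.463), and equal sums did not give that of Slc2a1 (0.0519). Pdk1, which holds back pyruvate oxidation, rose from 1.09, 1.43 and 2.59 FPKM to 8.01, 7.18 and 6.6 FPKM (log2 fold change 1.65 ± 0.19 (SE), adjusted p = 4.85e-06). None of 15 cholesterol-synthesis genes, 16 immediate early genes or 16 clustered histone genes passed. At an unadjusted p under 0.05 the counts were 0, 2 and 2. Without day 6 replicate 3, 1 histone gene fell, and without WT day 9 replicate 1, 1 immediate early and 1 histone gene fell. Of 19 stress-response and chaperone genes 2 rose, and none passed without day 6 replicate 1 or 2 or day 9 replicate 1. Apart from 3 predicted genes, the most abundant gene on both days was the imprinted RNA H19, at 5771, 4664 and 2283 FPKM and 2591, 3400 and 2555 FPKM (adjusted p = 0.414), followed at day 6 by the ribosomal protein gene Rplp1 and at day 9 by Eef1a1, an elongation factor at 3044, 2459 and 2726 FPKM.

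The same 3 days in WT cells give the comparison for the knockout. The difference between the KO and the WT change was tested as an interaction, and 119 genes passed (0.958%), 74 with the KO change higher (0.596%) and 45 with it lower (0.362%). The filter used the 6 KO libraries alone. With a filter over the whole series, 146 of 15159 genes tested passed, 91 with the KO change higher and 55 with it lower. With days 6 and 9 alone in the fit 5 passed. Single libraries moved the count too: 181 genes passed without KO day 6 replicate 3 and 254 without WT day 6 replicate 2. Fewer passed without KO day 6 replicate 2 (56), WT day 9 replicate 2 (69), WT day 6 replicate 3 (70), WT day 9 replicate 3 (71) or KO day 9 replicate 1 (76). In the KO cells some heart genes rose more. Myh6 went from 1.49, 1.02 and 1.06 FPKM to 2.22, 2.21 and 2.51 FPKM in WT libraries, a log2 change of 0.60 against 3.36 in KO cells (difference 2.75, limma adjusted p = 0.000228). Myl7 differed as well (0.70 in WT and 4.31 in KO cells, difference 3.61, adjusted p = 0.0215), although the call ended without WT day 6 replicate 1 or 3, WT day 9 replicate 1 or 2, KO day 6 replicate 2, or KO day 9 replicate 1 or 2 (adjusted p = 0.0526 to 0.0777). Actc1 rose in both, by 2.72 in WT and 4.83 in KO cells, and the difference did not pass (2.12, adjusted p = 0.204). In all, 5 of 18 sarcomere genes passed with the KO change higher and none with it lower. Of the 18, 5 entered the test through KO day 9 alone, which favours a positive difference. With days 6 and 9 alone in the fit, no sarcomere gene was among the 5 genes that passed. Lbh, described above, was at 6.55, 4.08 and 13.4 FPKM and then 13.8, 18.2 and 15.4 FPKM in WT cells (difference 2.35, adjusted p = 0.00329). Sfrp1 was already at 19.8, 13.1 and 17.7 FPKM at day 6 in WT cells and at 27.9, 32 and 28 FPKM at day 9 (difference 2.88, adjusted p = 0.00049; 0.116 with TPM).

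Other genes fell in WT cells and not in KO cells. Trh, the thyrotropin-releasing hormone precursor, was at 334, 202 and 524 FPKM at day 6 and 15.2, 28 and 30.8 FPKM at day 9 in WT cells, and at 57, 20.7 and 21.8 FPKM and 64.8, 64.5 and 54.4 FPKM in KO cells. It fell in WT cells (log2 change -3.74, limma adjusted p = 1.6e-06) and did not pass in KO cells (1.02, adjusted p = 0.122), a difference of 4.76 (adjusted p = 7.35e-05). Foxc2 fell from 4.32, 2.15 and 3.45 FPKM to 0.536, 1.26 and 1.04 FPKM in WT cells while it rose in KO cells (difference 2.99, adjusted p = 4.17e-05). These 2 differences passed in every alternative in which they were tested. Foxc2, like Otx2 below, entered the test through KO day 9 alone. Its change in KO cells had to be positive, which favours a positive difference. Otx2, a factor of anterior neural fate and the primed state, was at 4.1, 3.52 and 13.5 FPKM and then 0.984, 0.805 and 0.845 FPKM in WT cells and at 0.284, 0.218 and 0.2 FPKM and then 3.55, 1.97 and 1.62 FPKM in KO cells (difference 3.30, adjusted p = 0.00345). Col2a1 was at 11.2, 7.19 and 10.4 FPKM and then 5.89, 7.2 and 7.4 FPKM in WT cells, and did not pass there (log2 change -0.42, adjusted p = 0.426), against its rise in KO cells (difference 3.47, adjusted p = 0.00125). Myh6, Lbh, Otx2 and Col2a1 lost the call only with days 6 and 9 alone in the fit (adjusted p = 0.0676, 0.204, 0.0676 and 0.183). Hbb-bh1 rose in WT cells, from 57.8, 15.1 and 16.1 FPKM to 103, 163 and 208 FPKM, and was lower at day 9 in KO cells (difference -5.15, adjusted p = 0.0172). That call ended when WT day 6 or day 9 replicate 3, KO day 6 replicate 2 or KO day 9 replicate 1 was left out (adjusted p = 0.0561 to 0.0706). The 2 other globins that passed with the KO change lower, Hba-x and Hbb-bh0, had differences of -5.01 and -5.14 (adjusted p = 0.0415 and 0.0437), which also ended with single libraries left out. At day 9 the KO libraries, at 50.2, 203 and 141 FPKM, overlapped the WT values. Col3a1 (4.25 in WT, 4.52 in KO), Cdx2 (-2.57 and -3.44) and Ifitm1 (-2.50 and -2.40) changed in the same direction in both genotypes. Their differences did not pass (adjusted p = 0.877, 0.506 and 0.948), which does not show that the changes were equal.

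**Figure D5:**
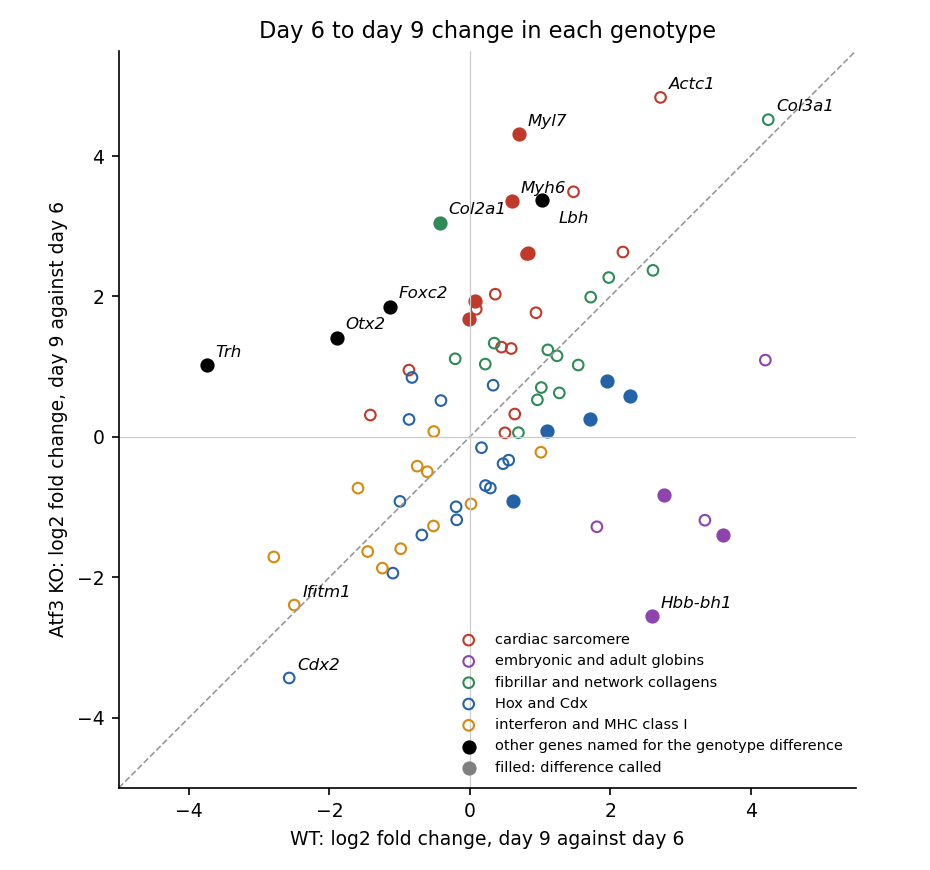
Log2 fold change from day 6 to day 9 in WT (horizontal) and Atf3 KO cells (vertical) for tested members of 5 lists and 4 other named genes, with the line of equal change dashed. Filled points passed the test of the difference. Sarcomere genes lie mostly above the line and globins below it, for example Hbb-bh1 at 2.60 in WT and -2.56 in KO cells.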

How the data were processed

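Poly(A) RNA of 24 libraries (Atf3 KO and WT cells at 4 days, 3 per group) was sequenced on an Illumina instrument, and the authors deposited 1 table of FPKM values for 53465 genes. The submitters' processing notes name the mm10 build, HISAT2 2.2.1 and featureCounts 2.0.1, and also R 4.1.0, DESeq2 1.30.1, Trimmomatic 0.39 and FastQC 0.11.9. Their settings were not stated. Whole reads were recovered from the deposited FPKM with GENCODE vM21 exon lengths, and 95.5% to 96.9% of values of up to 50 reads came within 0.05 of a whole number. No 2 libraries of the same group agreed within sampling noise (lowest chi-square per degree of freedom 7.84). Libraries of different groups were not compared in this way.

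Genes with FPKM of at least 1 in at least 3 of the 6 KO libraries of days 6 and 9 were fitted as log2(FPKM + 1) with limma 3.58.1 (R 4.3.3, moderated with a mean trend, two-sided, Benjamini-Hochberg adjustment over all genes tested, threshold 0.05) over all 8 groups. The contrasts were KO day 9 minus day 6, the same in WT cells, and their difference. On data simulated for the KO contrast with 12417 genes, 50 of 50 genes changed by each of the folds 4 and 0.25 were recovered, 32 of 50 at fold 2 and 26 of 50 at fold 0.5. Every simulated gene had the same dispersion of 0.05, so these shares do not hold for genes that varied more, such as the globins. Alternatives were a pseudocount of 0.1, other filters, TPM, equal library sums without ribosomal-RNA-type genes, fewer libraries in the fit, voom on the recovered reads, a replicate block, and each library left out. Python 3.11.15, pandas 2.3.3, numpy 2.4.6 and matplotlib 3.10.9 were also used.

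The members and the 44 gene lists were chosen with earlier results of these data known. Genes named in the text were Atf3, the 10 largest changes each way with no overlap and a mean FPKM of at least 5 in the higher group, up to 4 called members per list (and the most abundant where fewer than 2 passed), the 4 highest and lowest differences between genotypes, and the 5 most abundant genes per day. Outside this rule, Tpm1, Tnnc1, Tnnt2, Myl2, Myl3, Cryab, Nkx2-5, Gata4, Hbb-y, Pou5f1, H2-K1, B2m and the motif holders were chosen after their values were seen.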

Additional observations from a re-analysis of the deposited data

Results flagged for a closer look

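The day 6 to day 9 change differed between Atf3 KO and WT cells, by limma's test of the difference, for 20 of the genes named by the rule given above. Differences are the log2 change in KO cells minus that in WT cells. Muscle genes with the KO change higher were Myl7 (3.61), Myh6 (2.75), Smyd1 (1.74), Slc8a1 (1.38) and Cox6a2 (1.34). Matrix, signalling and vessel genes with the KO change higher were Col2a1 (3.47), Sfrp1 (2.88), Lbh (2.35), Hey1 (1.85) and Itga9 (1.53). Early or patterning genes with the KO change higher were Trh (4.76), T (3.70), Otx2 (3.30) and Foxc2 (2.99). Genes with the KO change lower were the globins Hbb-bh1 (-5.15), Hbb-bh0 (-5.14) and Hba-x (-5.01), the galectin Lgals2 (-3.59), the fatty acid carrier Fabp3 (-2.02) and the placental gene Plac1 (-1.83). Foxc2, Otx2, Slc8a1 and Cox6a2 entered the test through KO day 9 alone. Their KO change therefore had to be positive, which favours a positive difference, so the filter had a part in these calls. Trh passed in 21 of 21 alternatives and Foxc2 in 20 of 20. Col2a1, Lbh, Myh6 and Otx2 lost the call in 1 alternative each, and Sfrp1 and Itga9 in 2 each. Plac1 passed in 17 of 21, Cox6a2 in 15 of 20, Hbb-bh1 in 15 of 21, Hey1 in 13 of 20 and Myl7 in 12 of 21. The other 7 failed in more alternatives than they passed: Slc8a1 passed in 9 of 20, Smyd1 and Lgals2 in 9 of 21, Hba-x in 8 of 21, Hbb-bh0 in 6 of 21, T in 6 of 20 and Fabp3 in 5 of 21. Within KO cells Fabp3 did not pass, at 35.6, 50.1 and 57.8 FPKM at day 6 and 27.6, 38.9 and 23.7 FPKM at day 9.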

How the results depend on the processing

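The count of genes that passed between KO day 6 and day 9 (1154) was 1806 without a filter on low values, 434 with a mean FPKM of at least 5, 505 with only days 6 and 9 in the fit and 248 with only the 6 compared libraries. Leaving out 1 library gave 789 to 1801, the highest without KO day 6 replicate 3. The count for the difference between genotypes (119) was 47 with a pseudocount of 0.1, 246 without a filter, 12 with a mean FPKM of at least 5, 42 with TPM, 5 with only days 6 and 9 in the fit, 44 with voom on recovered reads, and 56 to 254 with 1 library left out. Fewer genes or libraries entered some of these fits. The fits of days 6 and 9 or of the 6 libraries also leave out the KO day 0 libraries, which were closer to each other. Otherwise the cause was not tested. All 123 named called genes kept their direction in each alternative in which they were tested (81 of them at a mean FPKM of at least 5). Of the 123, 65 still passed with the 6 libraries alone, 99 with TPM, 87 with days 6 and 9 alone and 106 to 123 with 1 library left out.

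With the replicate number as a block, 804 genes passed between days (593 higher and 211 lower), 52 passed for the difference, and 112 of the 123 named genes still passed. Same-numbered KO libraries of days 6 and 9 had correlations of deviations of -0.175, 0.351 and 0.425, and KO day 6 replicate 1 correlated best with day 9 replicate 2 (0.603), so the numbers were not taken to pair the libraries. Library quality weights could not be fitted. With 3 libraries a group, changes near 2-fold were recovered only in part in simulated data, so a gene that did not pass may still differ. Genes that varied more between libraries than the simulated ones may be missed at larger changes too.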
